A study of Homo sapiens with 12 samples.

Results

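Luminal and epithelial breast markers are genes that gland-lining cells of the breast express and that mesenchymal-like breast cancer cells often carry at low level. The set described here has 10 genes, chosen by symbol with earlier results of these data known. They include the transcription factors SPDEF and ELF3, the secretory pathway proteins AGR2 and AGR3, and the keratins KRT7 and KRT19. The others are the membrane proteolipids MAL2 and MALL, and the surface and junction proteins EPCAM and CLDN4. All 10 had a probe set assigned to them alone, out of 18417 genes with such a probe set, and the probe set with the highest mean over the arrays was read for each gene. The values are log2 expression levels, so a difference of 1 is a doubling.

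The cells were labelled as 1833, a bone-tropic subline of MDA-MB-231, an established triple-negative breast cancer line of human origin, and were grown in culture. In the first group, called shHMGA2, the cells carried an shRNA against HMGA2, a chromatin protein of embryonic and tumour cells, in a pLKO.1 lentiviral vector under puromycin (3 arrays). The Tet1 and HOXA9 groups carried a lentiviral TRE3G construct for Flag-tagged Tet1, an enzyme that oxidises methylated cytosine, or for HOXA9, a homeobox factor, together with the Tet-On regulator pCMV-Tet3G (2 independent arrays each). Those lines were selected in puromycin and G418 and grown in tetracycline-approved serum, with expression labelled as induced and no inducer or dose named. Control cells carried no labelled construct and grew in ordinary serum (3 arrays). A vector, selection or serum matched to each changed line is not labelled for control, and for Tet1 and HOXA9 the source field reads 1834 where the titles read 1833. The replicates are labelled as biological, with nothing on separate cultures or clones, so p-values measure only the spread between these arrays.

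Facts of the whole table bear on every result. Replicate 3 of Tet1 and of HOXA9 was the mean of replicates 1 and 2 in all 33297 probe sets (within 1e-06) and was left out, leaving 10 arrays. The arrays formed 2 sets with unlike array medians, 7.66 to 7.71 for Tet1 and HOXA9 and 7.21 to 7.28 for shHMGA2 and control, and array correlations of 0.945 to 0.966 between the sets against 0.986 or more within them. Set, subline, serum and construct cannot be told apart in any comparison of Tet1 or HOXA9 with control. The TET1 probe set averaged 8.97 in shHMGA2, 7.07 in the arrays labelled Tet1, 7.3 in those labelled HOXA9 and 6.56 in control. It did not differ between Tet1 and HOXA9 beyond the test (log2 -0.23, adjusted p = 0.69), so these groups are named by label only. HMGA2 was read only through a probe set shared with ELAC2, at 8.81 in shHMGA2 and 9.56 in control, and HOXA9 had no probe set here. VIM, an intermediate filament of mesenchymal-like lines, averaged 12.68 in shHMGA2, 13.47 in Tet1, 13.53 in HOXA9 and 12.84 in control. Its differences from control in Tet1 and HOXA9 were 0.62 and 0.68, and 0.16 and 0.23 once array medians were made equal. CDH1, the epithelial cadherin, averaged 5.82 in shHMGA2, 6.04 in Tet1, 5.97 in HOXA9 and 5.66 in control. Both were picked by name, and the basal breast genes, VIM among them, went both ways, as given below. Levels under 6.26, which is the 30th percentile over the whole table, may be no more than background. Every group mean of CDH1 lay under 6.26. The lower quartile was 6.22 to 6.25 in the Tet1 and HOXA9 arrays and 5.75 to 5.76 in shHMGA2 and control. The 6.26 line therefore does not mean the same in both sets.

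In glands, SPDEF and ELF3 are ETS-family transcription factors of epithelial differentiation, and AGR2 and AGR3 belong to the protein disulfide isomerase family of the endoplasmic reticulum. KRT7 and KRT19 form the intermediate filaments of simple epithelia, MAL2 and MALL sit in cholesterol-rich membranes and serve transport to the cell surface, EPCAM is a homophilic adhesion protein and CLDN4 a sealing claudin of tight junctions. Luminal breast cancers carry most of these, and MDA-MB-231 is classed as claudin-low and mesenchymal-like.

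In shHMGA2 cells, 7 of the 10 markers fell, 1 rose and 2 did not pass the test. MAL2 fell by 1.83 on the log2 scale, SPDEF by 1.24, AGR2 by 0.89, KRT19 by 0.87, MALL by 0.6, EPCAM by 0.49 and CLDN4 by 0.34, while KRT7 rose by 0.56. Over all 18417 genes 26.2% were called in this comparison, 13.6% higher and 12.6% lower. The median of the 10 markers was -0.54 and that of all genes -0.03. Because the markers were chosen with earlier results known, these values do not test whether markers fell more than other genes. EPCAM has a second probe set, which gave -0.4 here and did not pass (limma adjusted p = 0.16). The call of CLDN4 was lost without control replicate 2 or 3 or without shHMGA2 replicate 1 (adjusted p = 0.088, 0.058 and 0.083).

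Other features of the shHMGA2 arrays moved together with these falls. Of 9 genes that mark the embryonic kidney line HEK293, 5 rose and 0 fell (limma, 0 also at an unadjusted p under 0.05), with HOXD10 at 10.42 in shHMGA2 and 5.95 in control. The mean level over those 9 genes ranged from 7.42 to 7.63 in the shHMGA2 arrays and from 6.59 to 6.69 in control. That mean includes HOXD10 at log2 4.47, while the median difference of the 9 was 0.25, against -0.03 for all genes. CDH6 (-0.12), TFAP2B (-0.11), LHX1 (0.1) and PAX2 (-0.09) did not pass the test. The means of CDH6 (5.48) and TFAP2B (5.94) stayed under 6.26 in shHMGA2. Over all genes, 13.6% were called higher and 12.6% lower. CDKN2A, CDKN2B and MTAP, neighbours in a stretch that MDA-MB-231 is known to have lost at CDKN2A, all rose (log2 2.48, 0.56 and 1.72). Their part in the marker changes was not tested. In RNA of whole cultures, fewer cells with a marker and less RNA per cell cannot be told apart.

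The direct comparison of Tet1 with HOXA9 lies within an array set, and 3 of the 10 markers differed there. MAL2 was 6.51-fold and MALL 1.98-fold lower in the arrays labelled Tet1 than in those labelled HOXA9, and KRT7 was 2.02-fold higher. Among all genes only 0.434% were called, 0.114% higher and 0.32% lower. The medians were -0.07 for the markers and 0.01 for all genes. The same limit from the choice of markers holds for this contrast. The call of MALL was lost when either Tet1 array or HOXA9 replicate 2 was left out (adjusted p = 0.12, 0.11 and 0.11), fits in which the lone array is assumed to vary like the other groups. Those fits also called fewer of all genes, 11 without Tet1 replicate 1, 18 without Tet1 replicate 2 and 17 without HOXA9 replicate 2, against 80 with all 10 arrays.

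Against control, 5 markers were higher and 3 lower in Tet1, and 5 were higher and 1 lower in HOXA9. The marker lower in HOXA9 was AGR3, measured under 6.26, and that count was 2 without control replicate 1, HOXA9 replicate 1 or HOXA9 replicate 2. It was 3 under joint quantile normalization, 4 with equal array medians, 3 with all 12 columns and 0 without dim genes. These comparisons share their control arrays and cross the array sets, where 77.1% of all genes were called for Tet1 (53.9% higher, 23.2% lower) and 75.7% for HOXA9 (54% higher, 21.6% lower). A marker's call alone therefore says little here. The median gene was 0.25 higher in Tet1 and 0.24 higher in HOXA9 than in control, and the markers' medians were 0.4 and 0.43. Under a joint quantile normalization of the 10 arrays the median gene stood at 0 and -0.02, and with equal array medians at -0.22 and -0.21. The higher share of all calls moved with the scaling, from 69.9% as deposited to 49.4% and 29.9% for Tet1, and from 71.4% to 46.6% and 28.4% for HOXA9. Under all 3 scalings, AGR2, KRT7, MALL and CLDN4 were called higher and AGR3, MAL2 and EPCAM lower in Tet1, and AGR2, MALL and CLDN4 were called higher and AGR3 lower in HOXA9. Of all 18417 genes, 20.1% were called higher and 21.5% lower in Tet1 under all 3 scalings, and 18% and 20.5% in HOXA9.

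**Figure D1:**
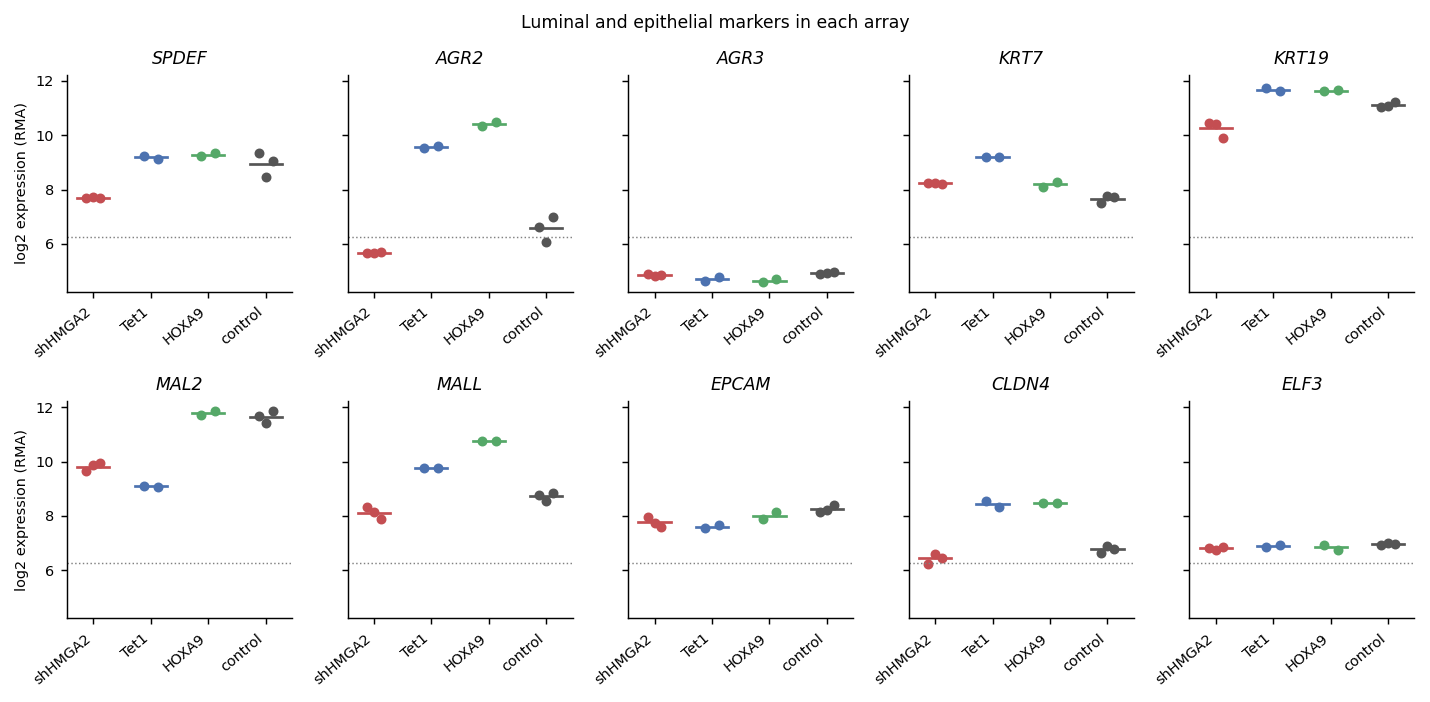
Log2 expression of the 10 markers in each of the 10 arrays (points) with group means (bars), and the 30th percentile of all probe sets, 6.26, as a dotted line. AGR2 was between 5.66 and 5.72 in shHMGA2 and between 9.53 and 10.49 in the Tet1 and HOXA9 arrays, and MAL2 was lowest in Tet1, at 9.09 and 9.08.

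**Figure D2:**
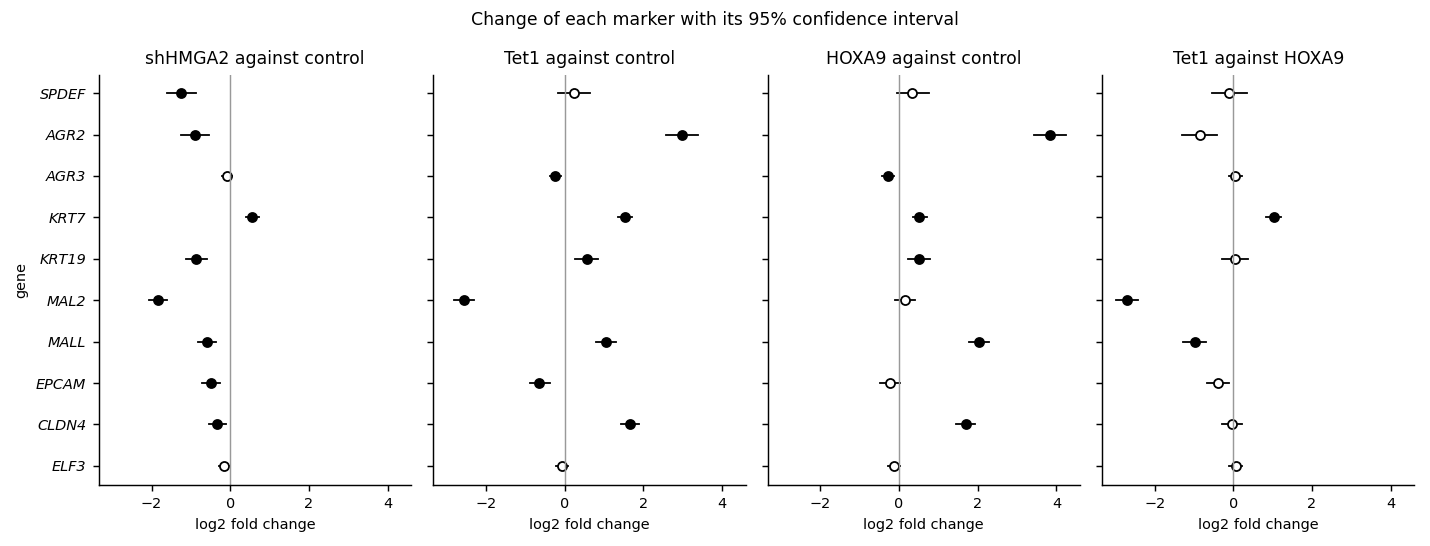
Log2 fold change (horizontal axis) of each marker with its 95% confidence interval in 4 comparisons, filled where the limma adjusted p was under 0.05. MAL2 lies left of 0 in shHMGA2 against control (-1.83), Tet1 against control (-2.56) and Tet1 against HOXA9 (-2.7), but not in HOXA9 against control (0.14).

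SPDEF, an ETS factor of luminal and goblet cells, had its lowest values in shHMGA2. Its level was 7.7, 7.74 and 7.68 in the shHMGA2 arrays, 9.23 and 9.14 in Tet1, 9.23 and 9.35 in HOXA9, and 9.35, 8.45 and 9.04 in control. The shHMGA2 arrays lay below all others and close together, and the control arrays spread widely, with replicate 2 lowest. Set against control, SPDEF was 2.37-fold lower in shHMGA2 (log2 -1.24, SE 0.17, 95% confidence interval -1.61 to -0.88, adjusted p = 0.00023). Tet1 and HOXA9 overlapped control, at differences of 0.24 (95% confidence interval -0.17 to 0.64) and 0.34 (-0.06 to 0.75), neither of which passed. Without control replicate 1 both would pass (log2 0.44 and 0.54, adjusted p = 0.018 and 0.006), and with equal array medians both were below 0 (-0.23 and -0.11). Between Tet1 and HOXA9 the difference was -0.1, with a 95% confidence interval of -0.55 to 0.34.

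ELF3, an ETS factor that epithelial cells also induce under inflammation, showed the narrowest span of group means among the markers (0.15). It was at 6.82, 6.76 and 6.86 in shHMGA2, 6.87 and 6.94 in Tet1, 6.93 and 6.75 in HOXA9, and 6.94, 6.99 and 6.96 in control. All arrays lay within a narrow band, with control at its upper end. ELF3 passed the test in none of the 4 comparisons with the deposited values (limma adjusted p of 0.1, 0.45, 0.13 and 0.85, unadjusted p of 0.033, 0.41, 0.1 and 0.42). In shHMGA2 the difference was -0.15 (95% confidence interval -0.28 to -0.01), and it passed under joint quantile normalization (-0.16, adjusted p = 0.047), with equal medians (-0.18, adjusted p = 0.041) and with all 12 columns (-0.15, adjusted p = 0.037). Against control, joint quantile normalization put ELF3 lower in Tet1 and HOXA9 (-0.62 and -0.67) and equal medians likewise (-0.52 and -0.58). Leaving out HOXA9 replicate 1 also gave a call there (-0.21, adjusted p = 0.03).

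AGR2, which helps fold mucins and other secreted proteins, had the widest span of group means among the markers (4.73). It stood at 5.67, 5.66 and 5.72 in shHMGA2, 9.53 and 9.59 in Tet1, 10.34 and 10.49 in HOXA9, and 6.63, 6.09 and 7 in control. No 2 groups overlapped, and control varied most (SD 0.46, against 0.03 in shHMGA2). The fall in shHMGA2 was 1.85-fold (log2 -0.89, SE 0.17, adjusted p = 0.002), with the shHMGA2 level under 6.26, so the change in RNA may be understated. In Tet1 and HOXA9, AGR2 was 2.98 and 3.84 higher than control (SE 0.18 each, adjusted p = 8.6e-08 and 1.9e-08). The same differences were 2.8 and 3.65 after joint quantile normalization and 2.52 and 3.38 with equal medians. Between Tet1 and HOXA9 the difference of -0.85 (95% confidence interval -1.3 to -0.41) did not pass with the spread shared over the 4 groups (adjusted p = 0.14). In a fit of those 2 groups alone it did (SE 0.08, adjusted p = 0.0015), as with all 12 columns (adjusted p = 0.0079).

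AGR3, a close relative of AGR2 that lies next to it among protein-coding genes on chromosome 7, did not follow it. Its levels were 4.89, 4.82 and 4.84 in shHMGA2, 4.64 and 4.77 in Tet1, 4.59 and 4.71 in HOXA9, and 4.91, 4.94 and 4.96 in control. Every array was far under 6.26, so AGR3 may not have been expressed in any group. Its measured differences from control were -0.09 in shHMGA2, -0.24 in Tet1 (adjusted p = 0.0059) and -0.29 in HOXA9 (adjusted p = 0.0018), and a difference between such levels has no clear reading. Without Tet1 replicate 1 the Tet1 call was lost (-0.17, adjusted p = 0.084).

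The promoter windows of AGR2 and AGR3 are shown because these neighbours had such unlike levels, and that of CLDN4 because CLDN4 was higher together with AGR2 in Tet1 and HOXA9. Each window spans 250 bases before to 50 bases after the gene start, from RefSeq, build GRCh38.p14, read 5′ to 3′ on the gene's strand. AGR2 is chr7:16804950-16805249 on the minus strand, AGR3 is chr7:16881934-16882233 on the minus strand, and CLDN4 is chr7:73830746-73831045 on the plus strand. Capitals mark matches on either strand to CACCTG (an E-box letter string bound by repressors of epithelial genes), TTTAT (a core of posterior HOX sites), TGTTTAC (forkhead), TATAAA (the core promoter box, which overlaps the reverse of TTTAT) and CCGGAA (ETS).
AGR2: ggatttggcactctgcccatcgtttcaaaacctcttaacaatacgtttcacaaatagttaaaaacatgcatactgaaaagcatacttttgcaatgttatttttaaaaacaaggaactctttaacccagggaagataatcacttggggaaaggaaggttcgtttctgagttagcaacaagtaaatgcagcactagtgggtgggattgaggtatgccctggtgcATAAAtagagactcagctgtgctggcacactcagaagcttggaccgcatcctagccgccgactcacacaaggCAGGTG
AGR3: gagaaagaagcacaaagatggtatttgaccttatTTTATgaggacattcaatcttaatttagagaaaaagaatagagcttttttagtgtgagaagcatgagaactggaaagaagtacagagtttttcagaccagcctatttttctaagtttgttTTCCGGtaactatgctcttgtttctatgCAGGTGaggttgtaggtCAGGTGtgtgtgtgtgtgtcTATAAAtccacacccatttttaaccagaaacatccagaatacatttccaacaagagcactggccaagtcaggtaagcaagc
CLDN4: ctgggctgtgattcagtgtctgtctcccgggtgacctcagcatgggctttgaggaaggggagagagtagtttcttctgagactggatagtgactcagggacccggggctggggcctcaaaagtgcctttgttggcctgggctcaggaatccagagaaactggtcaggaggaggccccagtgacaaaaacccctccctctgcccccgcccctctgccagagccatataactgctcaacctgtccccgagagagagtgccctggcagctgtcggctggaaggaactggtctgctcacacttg

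AGR2 holds 1 CACCTG match, 44 bases after the start, and 1 TTTAT match, 28 bases before it. AGR3 holds 2 CACCTG, 2 TTTAT, 1 TATAAA and 1 CCGGAA match, and CLDN4 holds none of the 5 strings. Of 35116 windows in the table, 20.6% hold CACCTG, 34.9% TTTAT, 3.42% TGTTTAC, 11.5% TATAAA and 17.2% CCGGAA. These matches describe letters, not sites. The CG dinucleotide, whose cytosine is the methylated base on which TET1 acts, occurs 6 times in the AGR2 window, 1 time in AGR3 and 5 times in CLDN4, against a median of 14 over all windows. SPDEF has 8 and ELF3 7, and the windows at the MALL starts have 0 and 24. Windows were found for 6 of the 10 markers, and those of KRT7, KRT19, MAL2 and EPCAM are not used here. Methylation was not analysed here.

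KRT7, a type II keratin of simple epithelia, was the only marker called higher in shHMGA2. It read 8.25, 8.24 and 8.21 in shHMGA2, 9.2 and 9.21 in Tet1, 8.11 and 8.28 in HOXA9, and 7.52, 7.77 and 7.72 in control. Tet1 was above every other array, control was below every other array, and shHMGA2 and HOXA9 overlapped. The rise in shHMGA2 was 1.48-fold (log2 0.56, SE 0.07, adjusted p = 0.00017). Tet1 exceeded HOXA9 by 1.02 (SE 0.09, 95% confidence interval 0.82 to 1.21, adjusted p = 0.00039). Against control, KRT7 was 1.54 higher in Tet1 (adjusted p = 3e-08) and remained so at 1.38 and 1.07 under the other scalings. In HOXA9 it was 0.52 higher as deposited (adjusted p = 9.5e-05), but 0.17 after joint quantile normalization (adjusted p = 0.098) and 0.07 with equal medians (adjusted p = 0.51).

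KRT19, a type I keratin used to detect epithelial tumour cells in blood and nodes, went the other way in shHMGA2. The shHMGA2 arrays read 10.45, 10.42 and 9.9, the Tet1 arrays 11.73 and 11.62, the HOXA9 arrays 11.61 and 11.66, and the control arrays 11.05, 11.08 and 11.23. All 3 shHMGA2 arrays were below control, with replicate 3 lowest. The fall was 1.82-fold (log2 -0.87, SE 0.12, 95% confidence interval -1.13 to -0.6, adjusted p = 3e-04). Tet1 and HOXA9 overlapped each other (difference 0.05, 95% confidence interval -0.28 to 0.37). They were 0.56 and 0.51 above control as deposited (adjusted p = 0.0024 and 0.0044), and 0.09 and 0.06 with equal medians (adjusted p = 0.57 and 0.74). KRT19 has processed pseudogenes, and whether its probe set also reads them was not tested.

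MAL2, which serves transcytosis to the apical surface in polarised cells, had the biggest difference of the 10 markers in both comparisons within an array set. Its values were 9.64, 9.86 and 9.93 in shHMGA2, 9.09 and 9.08 in Tet1, 11.7 and 11.87 in HOXA9, and 11.66, 11.42 and 11.85 in control. HOXA9 and control overlapped at the high end, and Tet1 lay below shHMGA2 without overlap. The fall in shHMGA2 was 3.56-fold (log2 -1.83, SE 0.11, 95% confidence interval -2.06 to -1.6, adjusted p = 3.4e-07). Tet1 was lower than HOXA9 by 2.7 on the log2 scale (log2 -2.7, SE 0.13, 95% confidence interval -2.98 to -2.42, adjusted p = 1.2e-06). Against control, Tet1 stood at -2.56 (SE 0.12, adjusted p = 1.3e-08), and at -2.58 and -3.02 under joint quantile normalization and equal medians. HOXA9 differed from control by 0.14 (95% confidence interval -0.11 to 0.4), a difference that turned to -0.31 with equal medians (adjusted p = 0.034).

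MALL, a MAL relative of caveolar and raft membranes, had a separate level in each group. It read 8.34, 8.13 and 7.88 in shHMGA2, 9.76 and 9.77 in Tet1, 10.75 and 10.74 in HOXA9, and 8.77, 8.53 and 8.85 in control. No groups overlapped, and the order ran from HOXA9 through Tet1 and control to shHMGA2. In shHMGA2 it was 1.52-fold lower than control (log2 -0.6, SE 0.11, adjusted p = 0.0015). Tet1 was lower than HOXA9 (log2 -0.98, SE 0.13, 95% confidence interval -1.27 to -0.7, adjusted p = 0.0074). Unlike MAL2, MALL was above control in Tet1, by 1.05 (adjusted p = 7.4e-06), and in HOXA9 by 2.03 (adjusted p = 7.3e-08). With equal medians these differences were 0.58 and 1.58.

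EPCAM, an adhesion protein and a common antigen for capturing tumour cells, fell in shHMGA2 by its brighter probe set. That probe set read 7.96, 7.74 and 7.58 in shHMGA2, 7.57 and 7.65 in Tet1, 7.89 and 8.13 in HOXA9, and 8.13, 8.21 and 8.41 in control. The shHMGA2 and Tet1 arrays lay below control, and HOXA9 overlapped shHMGA2 and control but not Tet1. In shHMGA2 the fall was 1.4-fold (log2 -0.49, SE 0.1, adjusted p = 0.0045). Tet1 was 1.55-fold lower than control (log2 -0.64, adjusted p = 0.00033), and HOXA9 did not pass (-0.24, 95% confidence interval -0.49 to 0.02). HOXA9 did pass without control replicate 1 (-0.3, adjusted p = 0.048), without HOXA9 replicate 2 (-0.36, adjusted p = 0.044), after joint quantile normalization (-0.57) and with equal medians (-0.69).

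The other EPCAM probe set gave no call in shHMGA2 or Tet1, and a call in the other direction in HOXA9. It was at 7.75, 7.03 and 7.12 in shHMGA2, 7.8 and 7.84 in Tet1, 8.17 and 8.91 in HOXA9, and 7.67, 7.79 and 7.64 in control. Its HOXA9 arrays lay above control, opposite to the brighter probe set. It gave -0.4 in shHMGA2 (adjusted p = 0.16), 0.12 in Tet1 (adjusted p = 0.62) and 0.84 in HOXA9 (adjusted p = 0.0034). The mean of both probe sets left -0.26 in Tet1 (adjusted p = 0.14). The direction read for EPCAM in Tet1 and HOXA9 thus depends on the probe set, which was compared after the values were seen. Whether the other probe set also reads a related locus was not tested.

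CLDN4, a claudin of tight junctions, was higher in both Tet1 and HOXA9 than in control. It stood at 6.23, 6.61 and 6.46 in shHMGA2, 8.54 and 8.31 in Tet1, 8.46 and 8.47 in HOXA9, and 6.65, 6.89 and 6.77 in control. Tet1 and HOXA9 overlapped each other and lay well above the other arrays. The differences from control were 1.65 and 1.7 (SE 0.11 each, adjusted p = 1.2e-07 and 1.3e-07). They were 1.29 and 1.32 after joint quantile normalization and 1.19 and 1.24 with equal medians. In shHMGA2 CLDN4 was lower by a small amount (log2 -0.34, SE 0.1, adjusted p = 0.023). Between Tet1 and HOXA9 the difference was -0.04 (95% confidence interval -0.3 to 0.22).

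**Figure D3:**
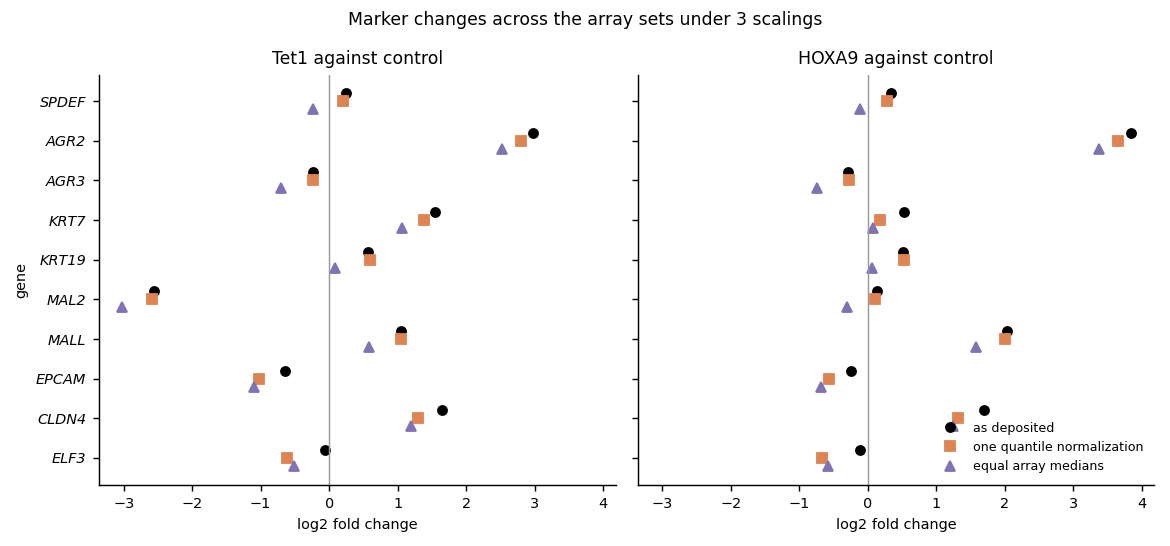
Log2 fold change of each marker in Tet1 against control and HOXA9 against control as deposited, after a joint quantile normalization and with equal array medians. AGR2, MALL and CLDN4 stay right of 0 in both panels, while KRT19 and, in HOXA9, KRT7 move to near 0 with equal medians.

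Relatives of the markers showed smaller changes in shHMGA2 than the largest of the 10. Over all genes, 13.6% were called higher and 12.6% lower in that comparison. Of 31 measured paralogues (other keratins, claudins, ETS factors, MAL relatives and a disulfide isomerase), 0 rose (0 also at an unadjusted p under 0.05 in limma) and 9 fell in shHMGA2, with a median of -0.06. At the ends were PLLP, a MAL-family myelin proteolipid (log2 -0.84), KRT80 (-0.64) and EHF, the ETS factor nearest to ELF3 (-0.55, with overlapping arrays). Only 5 fell without control replicate 2 or without shHMGA2 replicate 2, and 1 rose without control replicate 3 or shHMGA2 replicate 1. Of all genes, 4215 were called without control replicate 2 and 4046 without shHMGA2 replicate 2, against 4830 with all 10 arrays. KRT8 and KRT18, the other main keratins of simple epithelia, which the luminal list also holds, were at -0.21 (adjusted p = 0.046) and -0.07 (adjusted p = 0.74).

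Other luminal genes also split. Of 28 measured, 2 rose and 7 fell in shHMGA2, with a median of -0.06, where 13.6% of all genes rose and 12.6% fell. MLPH, a melanosome and granule transport adaptor, was at log2 -0.87, TSPAN1, a tetraspanin, at -0.86, and CREB3L1, a factor of the secretory pathway, at -0.74. DNAJC12, a cochaperone linked to oestrogen receptor status, rose by 1.55, against a control level under 6.26 (6.21), and TFAP2A, a transcription factor, by 0.43. The falls numbered 4 without control replicate 1 or shHMGA2 replicate 2 and 3 without control replicate 3 or shHMGA2 replicate 3. ESR1, the oestrogen receptor, averaged 5.95 in shHMGA2 and 6.05 in control, both under 6.26, and 6.95 in Tet1 and 6.96 in HOXA9. With control at that level, the size of the ESR1 differences is uncertain. Its differences from control in Tet1 and HOXA9 cross the array sets and were 0.89 and 0.91 as deposited. They were 0.33 and 0.35 after joint quantile normalization and 0.43 and 0.45 with equal medians.

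Among 42 other epithelial genes, 7 rose and 6 fell in shHMGA2, with a median of -0.06. Both counts are close to the shares over all genes (13.6% higher and 12.6% lower), to be read beside every list here. The adhesion receptor CXADR (log2 1.44), the lipid enzyme CDS1 (1.28) and the microtubule protein MAP7 (1.26) rose, and the cell-cycle adaptor SFN (-0.68), the myosin MYO5C (-0.54) and the protease inhibitor SPINT2 (-0.47) fell. Genes of basal breast lines were measured in the same arrays. Of 14, 2 rose and 8 fell in shHMGA2, with a median of -0.25, among them EGFR (-0.45), EMP3 (-0.42) and AXL (-0.4). CD109 rose by 1.63, against a control level under 6.26 (5.75), and LDHB by 0.19. The falls numbered 5 without shHMGA2 replicate 3, and 1 gene rose without control replicate 1 or 3 or shHMGA2 replicate 2 or 3. Of 12 fibroblast markers 0 rose and 2 fell, and of 9 white blood cell markers 0 rose and 3 fell (0 higher in either at an unadjusted p under 0.05).

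**Figure D4:**
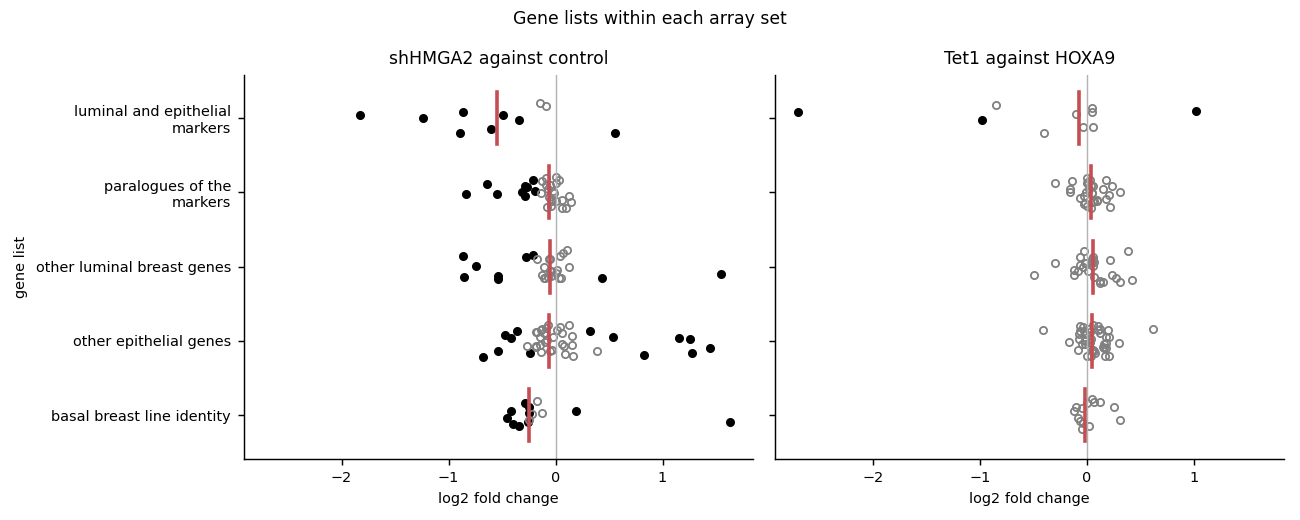
Log2 fold change of each gene in 5 lists, in shHMGA2 against control and Tet1 against HOXA9, filled where called, with list medians as red bars. The 10 markers have a median of -0.54 in shHMGA2 against control, and the other lists lie between -0.25 and -0.06. In Tet1 against HOXA9 the called genes are 3 of the 10 markers.

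Between Tet1 and HOXA9 the same lists gave no call: 0 of 31 paralogues, 0 of 28 other luminal genes, 0 of 42 other epithelial genes and 0 of 14 basal genes passed in limma. At an unadjusted p under 0.05 the numbers were 3, 4, 3 and 1. Over all genes only 0.434% were called. The 2 called fibroblast markers, COL1A1 (log2 0.56) and COL1A2 (0.46), were higher in Tet1. Leaving out either Tet1 array or HOXA9 replicate 2 left 0 of them called, and leaving out HOXA9 replicate 1 left 1. KRT7 was thus called while its relatives KRT18 (-0.3, adjusted p = 0.56) and KRT80 (0.31, adjusted p = 0.33) were not, and whether KRT7 differed more than they did was not tested.

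Against control, the lists moved with the scaling, and names here are limited to genes called the same way under all 3, as were 20.1% of all genes higher and 21.5% lower in Tet1, and 18% and 20.5% in HOXA9. In Tet1 and HOXA9, CLDN7 was higher (log2 1.22 and 1.06), as were KRT15 (1.21 and 1.14), CLDN16 (1.11 and 1.06) and CLDN9 (1.04 and 1.06). The control levels of KRT15 (6.13) and CLDN16 (5.64) lay under 6.26, so the size of their differences is uncertain. KRT15 was at 0.66 and 0.6 after joint quantile normalization and at 0.74 and 0.68 with equal medians. CLDN16 was at 0.59 and 0.55, and at 0.64 and 0.6, in the same order. CLDN1, another claudin, was lower (-1.47 and -1.7), as was PLLP (-0.84 and -0.69). Of the 31 paralogues, 15 were called higher and 4 lower in Tet1 under all 3 scalings, and 14 and 4 in HOXA9. Among luminal genes, TFF3, a secreted trefoil peptide, was higher (1.3 and 1.38), with TSPAN1 (1.23 and 1.72) and MUC20 (1.08 and 1.04). The AP-2 factors TFAP2C (-2.54 and -2.96) and TFAP2A (-1.58 and -1.52) were lower, as was ERBB2 (-0.31 and -0.27). Of the 28 luminal genes, 11 were called higher and 3 lower in Tet1 under all 3 scalings, and 7 and 3 in HOXA9. Of the 42 epithelial genes, 15 were called higher and 4 lower in Tet1, and 13 and 5 in HOXA9. DSC2, a desmosomal cadherin (1.25 and 1.33), and PPL, periplakin (1.26 and 1.09), were higher, and LSR, a protein of tricellular junctions (-1.32 and -1.3), and TJP1, a junction scaffold (-0.66 and -0.59), were lower.

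Markers of other cells moved in the same comparisons. Of 12 fibroblast markers, 11 were higher and 0 lower in Tet1 and in HOXA9 (0 lower also at an unadjusted p under 0.05), with COL1A2 at log2 1.79 and 1.34, and 8 and 7 of them were called higher under all 3 scalings. As deposited, 53.9% and 54% of all genes were higher, and 23.2% and 21.6% lower. Under all 3 scalings 20.1% and 18% of all genes were higher, and 21.5% and 20.5% lower. The mean level over the 12 ranged from 7.77 to 7.78 in Tet1, 7.53 to 7.58 in HOXA9 and 6.79 to 6.89 in control. Of 9 white blood cell markers, 8 and 9 were higher as deposited, and 1 was called higher under all 3 scalings in each comparison. Of the 9 kidney-line genes, 6 were higher and 1 lower in Tet1 (median 0.63), and 5 and 2 in HOXA9 (median 0.55), with LHX1, a kidney development factor, at 1.26 and 1.2. Under all 3 scalings 3 were higher and 1 lower in Tet1, and 2 and 2 in HOXA9. The lower count as deposited was 0 in Tet1 without control replicate 2 or 3 or either Tet1 array. In HOXA9 it was 0 without control replicate 1 or 2 or HOXA9 replicate 2, and 1 without control replicate 3. Of the 14 basal genes, 7 were higher and 4 lower in Tet1 (median 0.14), and 6 and 4 in HOXA9 (median 0.17). Under all 3 scalings 3 were higher and 4 lower in Tet1, and 4 and 4 in HOXA9. SPARC, a matrix protein, was higher (2.21 and 1.9, with control at 6.04, under 6.26), as were PLAU (1.32 and 1.07) and EMP3 (1.27 and 1.31). FOSL1 (-0.84 and -0.75), EGFR (-0.76 and -0.66) and CD44 (-0.47 and -0.49) were lower. The part of these lists in the marker changes was not tested.

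For the 3 markers with the widest span of group means, genes with the nearest level pattern were sought by the root mean square difference over the 10 arrays, each gene centred on its own mean. Nearest to AGR2 were CD96, an immune receptor (0.21), S100A4, a calcium-binding protein (0.34), and ANGPTL4, a secreted lipase inhibitor (0.4). CD96 averaged 5.56 in shHMGA2, 9.83 in Tet1, 10.22 in HOXA9 and 6.75 in control. Nearest to MALL were probe sets of the microRNA genes MIR21 (0.09) and MIR100 (0.18), and GRIK2, a kainate receptor subunit (0.2). MIR21 averaged 8.63 in shHMGA2, 10.28 in Tet1, 11.28 in HOXA9 and 9.18 in control. MAL2 had no close match: AK5, an adenylate kinase, lay at 0.59, MIR221 at 0.66 and MIR181B1 at 0.71. This nearness is a description over 10 arrays that share 4 groups and 2 array sets.

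**Figure D5:**
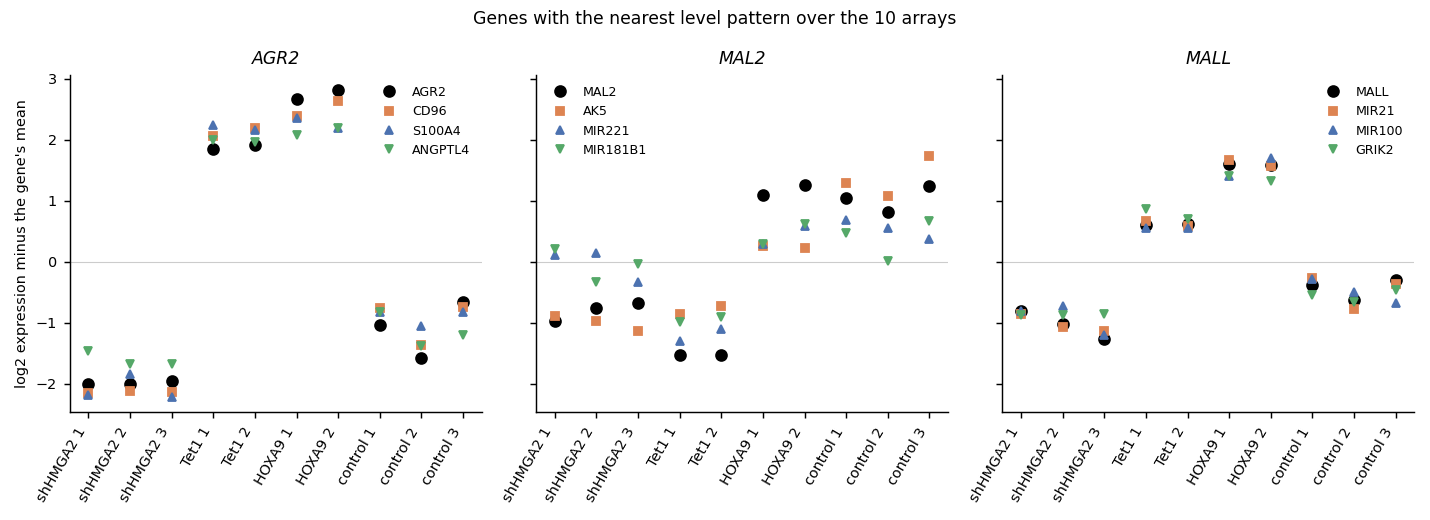
Log2 expression minus each gene's mean, in each of the 10 arrays, for AGR2, MAL2 and MALL (large black points) and the 3 genes nearest to each. MIR21 follows MALL with a root mean square difference of 0.09, and the nearest gene to MAL2 is at 0.59.

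Among control arrays the spread was shared by several markers. Control replicate 2 was the lowest control array in SPDEF (8.45), AGR2 (6.09), MAL2 (11.42) and MALL (8.53). It was the highest in KRT7 (7.77), CLDN4 (6.89) and ELF3 (6.99). In shHMGA2, replicate 3 was the lowest array in KRT19 (9.9), MALL (7.88), EPCAM (7.58), SPDEF (7.68) and KRT7 (8.21). That array was the highest of shHMGA2 in MAL2 (9.93), AGR2 (5.72) and ELF3 (6.86). Among the markers, the 2 Tet1 arrays differed most in CLDN4 (8.54 and 8.31).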

How the data were processed

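Gene expression was measured on Affymetrix Human Gene 1.0 ST arrays. Per the submitters' processing notes, the authors made the deposited log2 values in R 2.11 by RMA, which corrects background, quantile-normalizes and summarises probes. Whether it was run on all arrays at once is not stated. Gene names came from the platform annotation (19460 of 33297 probe sets with 1 symbol, 1754 with several, 12083 not listed), and updating through Entrez IDs changed 0 symbols. A model of the 4 groups was fitted with limma 3.58.1 in R 4.3.3 (lmFit, eBayes, 6 residual degrees of freedom) on 18417 genes, two-sided. P-values were adjusted over all genes (Benjamini-Hochberg), and under 0.05 was a call. The fit was tested on simulated data. SE and intervals use the spread shared by the groups, and the number of arrays limits precision.

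The markers, lists, tests and alternatives were chosen with earlier results of these data known. Named were all 10 markers, up to 3 rising and 3 falling called genes per other list and comparison, and 3 nearest genes for 3 markers. KRT8, KRT18, ESR1, CDH6, TFAP2B, LDHB, PAX2, LHX1 (in shHMGA2) and KRT80 (in Tet1 against HOXA9) were added after their values were seen. VIM and CDH1 were picked by name, outside that rule. Same-numbered replicates of shHMGA2 and control had correlated deviations of 0.16, 0.14 and 0. These are too few to decide whether the numbers pair the arrays, and the main fit treated the arrays as unpaired. The correlations for Tet1 and HOXA9 were 0.17 and 0.17, equal by construction with 2 arrays a group, and also too few to decide. Alternatives were 2 scalings, all 12 columns, 2-group fits, a filter at the 30th percentile, averaged probe sets, an intensity trend, a replicate block and leaving out each array. Their effect on lists, and the other EPCAM probe set, were added after seeing the data.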

Additional observations from a re-analysis of the deposited data

How the results depend on the processing

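Over the 4 comparisons, the intensity trend changed 0 of 40 marker calls, and the replicate block also changed 0 of 40, with 7 markers lower and 1 higher in shHMGA2 under the block. The number of markers called lower in HOXA9 against control was 1, and 3 after joint quantile normalization, 4 with equal array medians, 3 with all 12 columns and 0 with dim genes left out, a fit that drops AGR3. Those called higher there were 5, and 3 with equal medians. MAL2 in HOXA9 turned to -0.31 with equal medians. Markers lower in Tet1 than in HOXA9 were 2, and 4 with all 12 columns, which counts averages as replicates. Leaving out 1 array gave 1 to 2 markers lower in HOXA9 against control (2 without control replicate 1, HOXA9 replicate 1 or HOXA9 replicate 2) and 1 to 2 lower in Tet1 against HOXA9. Over all genes, calls between Tet1 and HOXA9 were 80, and 145 after joint quantile normalization (37.9% higher, against 26.2%), 143 in the fit of those groups only and 1112 with all 12 columns. Beyond the scaling itself, the cause of these shifts was not tested. No detection calls came with the table, so values under 6.26 have no known distance from background.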
